A study of Homo sapiens with 16 samples.

Results

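The CFAP genes (cilia and flagella associated proteins) and the axonemal dynein genes were followed in HEK293 cells that overexpressed RNF43 or its frameshift variants. The set was taken by name from GENCODE 29: every protein-coding gene called CFAP or DNAH with a number, or DNAI with a digit, plus WDR78, an intermediate chain now called DNAI4 in RefSeq. This gave 49 of 35075 genes, namely 33 CFAP genes, 13 dynein heavy chain genes and 3 dynein intermediate chain genes. The set was chosen by the falls of CFAP43, WDR78 and DNAH17 against GFP in these same libraries, so the values of those 3 genes are given as a description with no test, and they are left out of the counts of called genes. Of the 49 genes, 40 passed the low-count filter and are among the 16787 genes tested.

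Motile cilia and sperm flagella beat because dynein motors, fixed in rows to the outer microtubule doublets of the axoneme, walk along the neighbouring doublet. Outer arms set mainly the beat frequency and inner arms mainly the waveform, and each arm is built from heavy chains, which carry the motor, and from intermediate and light chains, which hold the arm together. CFAP proteins form many of the other parts, among them proteins inside the doublet microtubules, the central pair apparatus, the bases of radial spokes and the tethers of inner arms. In multiciliated cells most of these genes are switched on together by FOXJ1 and RFX transcription factors. HEK293 cells, a line from human embryonic kidney, can form a primary cilium, which lacks dynein arms.

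The study sequenced RNA of HEK293 cells in 4 groups of 4 libraries. The groups overexpressed RNF43 G659fs, RNF43 R117fs, wild-type RNF43 (WT) or, as control, GFP. RNF43 is a ubiquitin ligase of the plasma membrane that sends Frizzled receptors, and with them Wnt signalling, for degradation, and both variants are frameshifts, R117fs early in the protein and G659fs late, in its cytoplasmic tail. The sources used here do not state the vector, its promoter, the time after delivery or whether replicates were separate cultures or clones. P-values thus reflect how far these libraries spread, and that spread may be technical alone.

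The libraries held between 20364357 and 46779570 estimated counts. RNF43 stood at 35239 to 47176 CPM (counts relative to the TMM-scaled size of the library) in G659fs, 30191 to 94569 in R117fs and 42146 to 59768 in WT, against 13.1 to 50.3 in GFP. Its level thus set every library labelled RNF43 apart from those labelled GFP. The ranges of the 3 constructs overlapped, so the level does not show which construct a library held. R117fs replicates 1 and 4 stood apart from replicates 2 and 3 and from each other: the 5 pairs with either of them differed by 51.4 to 79.98 in chi-square per degree of freedom over genes, against 5.47 for replicates 2 and 3 and 3.53 to 19.8 for pairs within the other groups. The deviations of replicate 4 followed the GC content of genes across genes (Spearman rho 0.757). The tested members had a median GC content of 45.0%, against 49.5% for all tested genes. All 5 markers of HEK293 cells reached 1 CPM in at least 1 library. Summed, they stood at 429 to 484 CPM in G659fs, 329 to 450 in R117fs and 353 to 547 in WT, all above the 269 to 313 in GFP. None of 6 spermatid markers reached 1 CPM, with 5 of them under 3 counts over all libraries. Of the 8 markers of multiciliated cells, 6 reached 1 CPM in at least 1 library. The 8 summed to 19.2 to 20.8 CPM in G659fs, 21.0 to 26.1 in R117fs and 21.2 to 21.7 in WT, against 19.2 to 21.3 in GFP. Of the 5 fibroblast markers, 4 reached 1 CPM in at least 1 library. The 5 summed to 53.1 to 68.7 CPM in G659fs, 38.1 to 62.4 in R117fs and 33.9 to 47.9 in WT, against 42.1 to 56.2 in GFP. Of 5 markers of gut epithelium 4 were found and 2 reached 1 CPM in at least 1 library. The 4 found summed to 28.0 to 30.6 CPM in G659fs, 27.2 to 35.8 in R117fs and 27.6 to 30.8 in WT, against 24.7 to 26.4 in GFP. The part of these markers in the results was not tested. In bulk RNA, fewer cells that express a gene and less of its RNA per cell cannot be told apart.

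RFX factors bind a promoter element called the X-box, and the stretches below show where its letters stand in promoters of dynein and CFAP genes whose levels are described further on. RefSeq promoters on GRCh38.p14, each running 250 bases before to 50 bases after the start site, were matched for 42 of the 49 genes. CFAP157, CFAP300, CFAP54, CFAP73, DNAH17, DNAH3 and WDR78 had no match. The letters of the RFX X-box consensus, searched on both strands, occurred in 7 of 42 member promoters (16.67%) and in 2.28% of all 35116 promoters. Each stretch runs 5′ to 3′ on the strand of its gene and ends at or before the start site. Capitals mark the X-box letters in either orientation, and in CFAP43 a forkhead match:
DNAH12: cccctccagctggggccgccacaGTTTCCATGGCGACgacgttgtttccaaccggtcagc
DNAH1: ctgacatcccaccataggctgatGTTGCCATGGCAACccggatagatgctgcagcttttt
DNAH11: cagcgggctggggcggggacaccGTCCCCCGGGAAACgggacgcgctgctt
DNAH2: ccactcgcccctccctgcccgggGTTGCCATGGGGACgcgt
CFAP45: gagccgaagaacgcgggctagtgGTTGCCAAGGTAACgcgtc
CFAP43: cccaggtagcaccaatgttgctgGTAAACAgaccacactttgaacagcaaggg

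The stretches lie at chr3:57544349-57544408, minus strand (DNAH12), chr3:52316191-52316250, plus strand (DNAH1), chr7:21542988-21543038, plus strand (DNAH11), chr17:7717703-7717743, plus strand (DNAH2), chr1:159900166-159900207, minus strand (CFAP45) and chr10:104232494-104232546, minus strand (CFAP43). The match of DNAH1 begins at position -105 from the start site and that of CFAP45 at -19, and both read as an X-box on either strand. DNAH12 and DNAH1 were lower in all 3 RNF43 groups than in GFP, though not all of these calls held under alternative settings (below). CFAP45 and DNAH2, which hold the letters as well, passed the test in no comparison. DNAH11, which holds them too, was called against GFP in no group and was higher in R117fs than in WT. The other 2 matches were in CFAP100 and CFAP47, which were too low to test. The shorter letters GTTGCC, which lie within some X-box matches, occurred in 45.24% of member promoters and 12.19% of all promoters. GTTNCC, which includes GTTGCC, occurred in 66.67% and 45.42%. The forkhead letters TGTTTAC occurred in 2 member promoters (4.76%), CFAP43 among them, and in 3.42% of all promoters, and TGTTTGT in 1 (2.38%) and in 5.23%. A match describes these letters in this window and does not show that a factor binds there.

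Most of the genes were expressed at a trace. Deposited TPM, which scales for transcript length and so allows genes to be compared, had a median of 0.874 over the 49 members, against 12.8 over all tested genes. Only 6 members averaged 10 TPM or more: CFAP298 (113 TPM), which is needed to assemble dynein arms, CFAP20 (69.8 TPM), a protein of the inner junction of the doublet, DNAH14 (64.4 TPM), CFAP36 (46.1 TPM), CFAP410 (20.4 TPM) and CFAP97 (17.8 TPM). Another 17 averaged 1 to 10 TPM and 26 were under 1 TPM. The DNAH14 level rests largely on a short transcript of 1103 bases, where the full-length one has 13763 bases, so it says little of a complete heavy chain. CFAP410, CFAP44 and CFAP298 share 55.63%, 27.7% and 22.25% of their 31-base words with other genes, which makes their levels uncertain. The 9 genes not tested never exceeded 0.342 CPM in a library: CFAP46 and CFAP47 of the central pair, CFAP73 and CFAP100 of an inner arm tether, CFAP126 and CFAP161 of the doublet interior, CFAP97D2, and DNAH9 and DNAI2 of the outer arm.

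**Figure D1:**
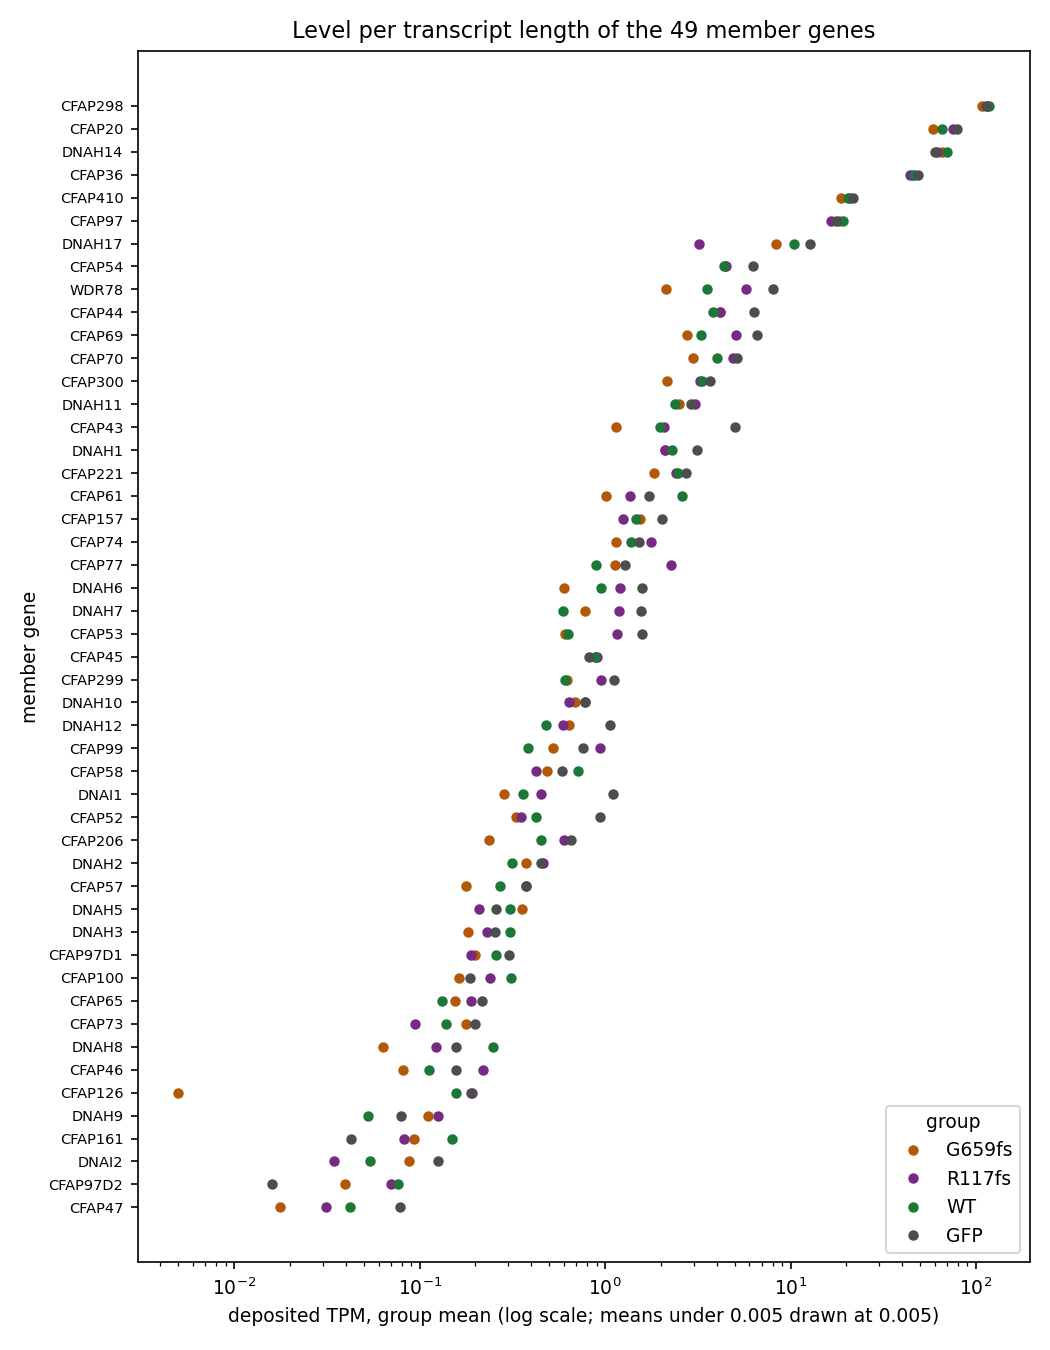
Deposited TPM (log scale, horizontal) of the 49 genes (vertical), 1 point per group mean of 4 libraries, coloured by group. The 6 genes at 10 TPM or more sit at the top with their group means close together, and the spread between groups is wider among genes of a few TPM, with the G659fs point often at the left and the GFP point often at the right. Over all tested genes deposited TPM was also lower than in GFP, by a median log2 fold change of -0.10 in G659fs, -0.09 in R117fs and -0.14 in WT.

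CFAP43, WDR78 and DNAH17, the genes that led to the choice of the set, had different orders over the 4 groups. CFAP43 (ENSG00000197748, chr10:104129888-104232362, minus strand) is part of the tether that holds an inner dynein arm to the doublet. It had 3.34, 2.02, 2.44 and 2.42 CPM in G659fs, 4.32, 5.44, 4.77 and 4.62 in R117fs, 4.49, 3.32, 4.36 and 4.15 in WT and 11.8, 12.7, 11.2 and 14.3 in GFP. The G659fs libraries were the lowest, apart from replicate 1, which lay level with WT replicate 2. GFP stood clear of the other groups, and R117fs and WT overlapped. The log2 fold changes against GFP were -2.31 ± 0.14 in G659fs, -1.38 ± 0.13 in R117fs and -1.62 ± 0.13 in WT (SE).

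WDR78 (ENSG00000152763, chr1:66812885-66924887, minus strand), an intermediate chain of the same inner arm, had 3.24, 2.59, 2.64 and 2.76 CPM in G659fs, 5.82, 7.97, 6.84 and 5.34 in R117fs, 5.27, 3.32, 4.504 and 3.82 in WT and 9.65, 11.96, 11.6 and 12.8 in GFP. The 4 groups followed each other with no overlap, from G659fs as the lowest through WT and R117fs to GFP as the highest. The log2 fold changes against GFP were -2.04 ± 0.15 in G659fs, -0.81 ± 0.14 in R117fs and -1.45 ± 0.14 in WT (SE).

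DNAH17 (ENSG00000187775, chr17:78423697-78577394, minus strand) is an outer arm heavy chain known from sperm flagella. It had 23.9, 28.1, 26.7 and 29.6 CPM in G659fs, 9.69, 7.17, 6.53 and 9.76 in R117fs, 31.3, 30.4, 37.8 and 36.1 in WT and 36.5, 34.4, 36.4 and 40.4 in GFP. Here all 4 R117fs libraries lay far below every other library, the G659fs libraries lay below WT and GFP, and WT and GFP overlapped. Against GFP the log2 fold changes were -0.45 ± 0.11 in G659fs, -2.15 ± 0.12 in R117fs and -0.12 ± 0.11 in WT (SE). An antisense gene, DNAH17-AS1, covers 9.15% of the exonic bases of DNAH17, and the sources used here do not state the strand setting of the libraries, so reads from that stretch cannot be told apart.

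**Figure D2:**
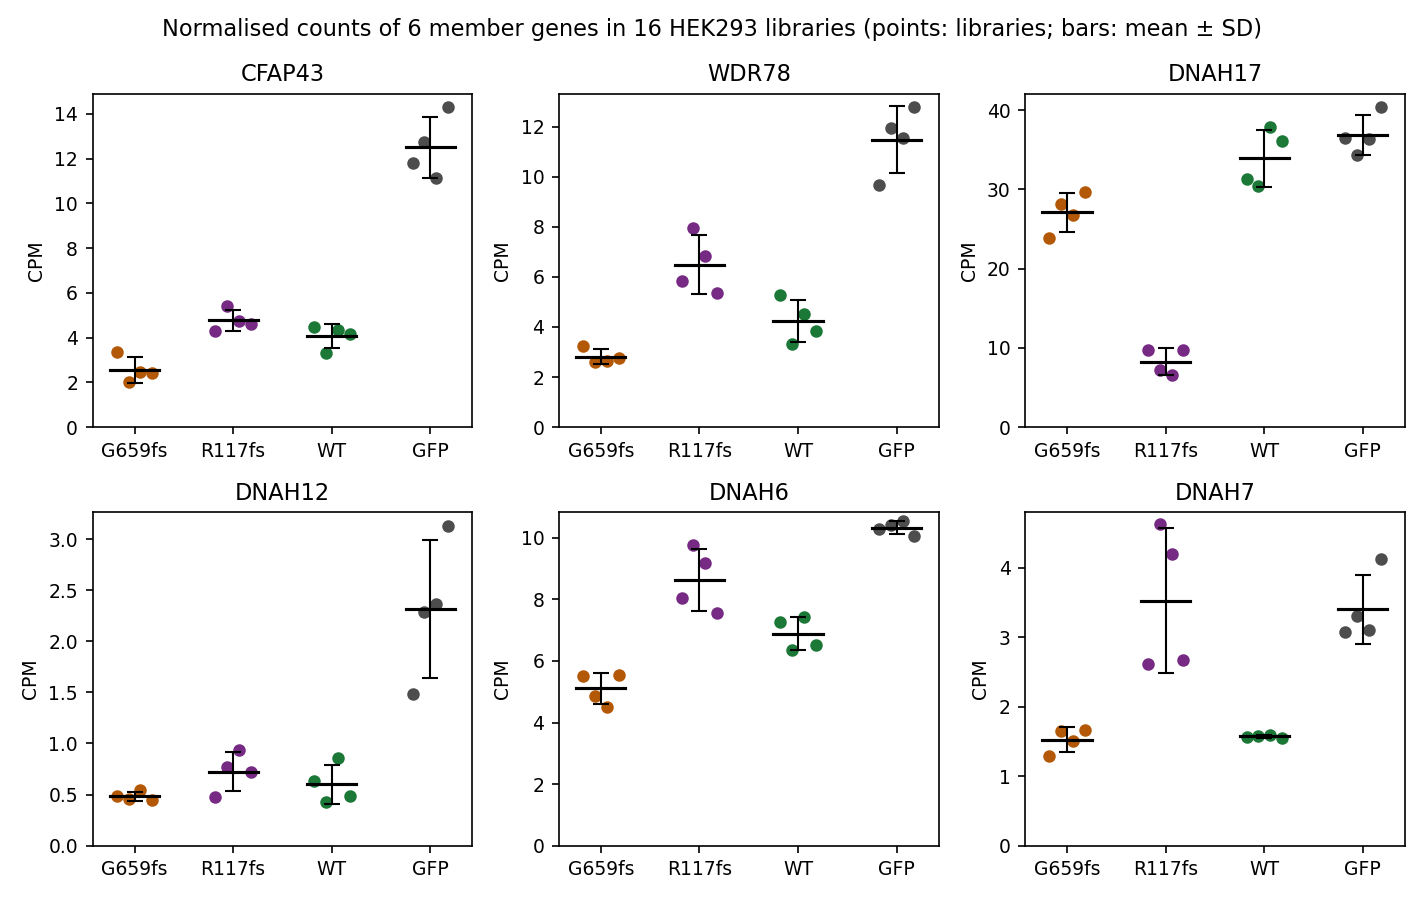
CPM after TMM scaling (vertical) in the 16 libraries, by group (horizontal), for CFAP43, WDR78, DNAH17, DNAH12, DNAH6 and DNAH7. Points are libraries and bars are the mean ± SD of 4. GFP is clearly highest for CFAP43 and DNAH12, R117fs is lowest only for DNAH17, and R117fs lies with GFP for DNAH7.

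Of the inner arm heavy chains, DNAH12, DNAH6 and DNAH7 were lower in G659fs and WT than in GFP, with different values in R117fs. DNAH12 had 0.488, 0.459, 0.543 and 0.442 CPM in G659fs, 0.477, 0.773, 0.933 and 0.719 in R117fs, 0.637, 0.429, 0.854 and 0.486 in WT and 1.48, 2.28, 2.37 and 3.13 in GFP. Every library with an RNF43 construct was below every GFP library, and the 3 construct groups overlapped. DNAH6 had 5.504, 4.87, 4.52 and 5.55 CPM in G659fs, 8.05, 9.76, 9.17 and 7.55 in R117fs, 7.27, 6.35, 7.42 and 6.51 in WT and 10.3, 10.4, 10.5 and 10.1 in GFP. All G659fs libraries lay below all WT libraries, all WT libraries below all R117fs libraries, and all R117fs libraries below all GFP libraries. DNAH7 had 1.29, 1.65, 1.51 and 1.67 CPM in G659fs, 2.61, 4.64, 4.197 and 2.67 in R117fs, 1.56, 1.58, 1.59 and 1.56 in WT and 3.08, 3.31, 3.103 and 4.13 in GFP. The R117fs libraries overlapped those of GFP, with replicates 1 and 4 below replicates 2 and 3, and G659fs and WT overlapped below them. With an offset for effective transcript length the calls against GFP were lost for DNAH7 in G659fs and WT and for DNAH12 in G659fs. The G659fs call of DNAH7 was also lost in limma on deposited TPM. DNAH6 kept its calls in G659fs and WT under every alternative.

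DNAH1, another inner arm heavy chain, averaged 10.7 ± 1.59 CPM in G659fs, 11.7 ± 2.01 in R117fs and 12.4 ± 1.31 in WT, against 16.3 ± 2.102 in GFP (SD, n = 4 each). Every construct library was below the lowest GFP library. The WT call was lost without GFP replicate 3 or WT replicate 2, 3 or 4, at log2 fold changes between -0.41 and -0.31, and the R117fs call without GFP replicate 3 or R117fs replicate 3, at -0.38 in each case. The calls of DNAH1 in all 3 groups were also lost with an offset for effective transcript length, on protein-coding transcripts alone and in limma on deposited TPM. On coding transcripts it ran from 3.88 to 14.2 CPM within GFP. DNAH3, which also belongs to the inner arms, averaged 0.466 ± 0.123 CPM in G659fs and 0.778 ± 0.2100 in GFP, and its call in G659fs was lost under 18 of 26 alternatives, including the omission of any of 11 single libraries. The heavy chains DNAH2 and DNAH10, which pair in the inner arm that WDR78 belongs to, passed the test in no comparison: their log2 fold changes in G659fs against GFP were -0.22 ± 0.20 and -0.19 ± 0.19 (SE).

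In the outer arm, the intermediate chain DNAI1 was lower with every construct. It had 0.314, 0.321, 0.198 and 0.238 CPM in G659fs, 0.301, 0.347, 0.518 and 0.668 in R117fs, 0.261, 0.226, 0.324 and 0.454 in WT and 0.912, 0.773, 0.983 and 1.08 in GFP. Every construct library was below every GFP library, and levels were low in all groups. The heavy chain DNAH8 was called lower in WT alone, with 0.0579, 0.361, 0.177 and 0.324 CPM in WT against 0.304, 0.663, 0.553 and 0.6704 CPM in GFP. These ranges overlapped, and the call was lost without WT replicate 1 or 3 or without GFP replicate 2 or 4, when its log2 fold change lay between -1.11 and -0.90. DNAH5 did not pass the test, with 0.325 ± 0.139 CPM in G659fs, 0.4605 ± 0.147 in R117fs, 0.432 ± 0.109 in WT and 0.313 ± 0.148 in GFP (SD, n = 4 each). DNAH11 differed between R117fs and WT and from GFP in no group.

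Among CFAP genes of the doublet microtubule, CFAP53, an inner microtubule protein also required for left-right asymmetry, had 0.662, 0.689, 0.7900 and 0.953 CPM in G659fs, 1.61, 1.57, 1.503 and 1.23 in R117fs, 0.927, 0.836, 0.912 and 0.648 in WT and 1.79, 1.73, 1.44 and 2.61 in GFP. G659fs and WT overlapped each other and lay below GFP, and R117fs overlapped GFP. CFAP52, of the same compartment, averaged 0.163 ± 0.0846 CPM in G659fs, 0.272 ± 0.0737 in R117fs and 0.246 ± 0.09898 in WT, against 0.456 ± 0.0925 in GFP (SD, n = 4 each), and was called lower in G659fs. At these levels CFAP52 may have passed the low-count filter through GFP, its highest group, alone. Its call was also made with no low-count filter. CFAP45, also inside the doublet, was highest with the constructs and passed the test in no comparison (0.51 ± 0.21 in G659fs against GFP, log2 with SE). The abundant CFAP20 averaged 46.2 ± 1.48 CPM in G659fs and 54.9 ± 2.27 in GFP, and this small difference was called.

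CFAP77, found in doublet microtubules, went the other way in R117fs: it had 0.732, 0.964, 1.14 and 1.29 CPM in G659fs, 1.73, 2.51, 2.33 and 2.77 in R117fs, 0.8400, 1.22, 0.618 and 0.778 in WT and 1.03, 1.47, 0.953 and 1.42 in GFP. Its R117fs libraries lay above all others, and its log2 fold change in R117fs against GFP was 0.91 ± 0.21 (SE).

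Of the CFAP genes of the radial spokes and central pair, CFAP206, at the base of a radial spoke, averaged 0.3700 ± 0.0821 CPM in G659fs, 0.847 ± 0.329 in R117fs, 0.723 ± 0.111 in WT and 0.9201 ± 0.171 in GFP (SD, n = 4 each). CFAP206 shares 56.04% of these words, mostly with AL049697.1 on the same strand, so its level is uncertain too. CFAP61, of the same spoke complex, had 0.801, 0.666, 0.593 and 0.783 CPM in G659fs, 1.23, 1.599, 0.777 and 1.39 in R117fs, 2.17, 1.22, 2.44 and 2.301 in WT and 1.41, 1.07, 1.01 and 1.19 in GFP. Its mean was highest in WT, where it was called higher than in GFP, and the G659fs libraries lay below all WT and GFP libraries. The WT call against GFP was lost without GFP replicate 2 or 3 or WT replicate 3 or 4, at log2 fold changes between 0.67 and 0.73. The central pair gene CFAP221 averaged 1.92 ± 0.245 CPM in G659fs and 2.85 ± 0.255 in GFP and was called lower, whereas CFAP54 and CFAP74 of the central pair and CFAP44, the partner of CFAP43, were not called against GFP. CFAP54 had log2 fold changes of -0.39 ± 0.16 in G659fs, -0.36 ± 0.16 in R117fs and -0.35 ± 0.16 in WT (SE).

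The assembly factor CFAP300 was lower in G659fs alone: it averaged 1.600 ± 0.175 CPM in G659fs, 2.36 ± 0.3098 in R117fs, 2.53 ± 0.491 in WT and 2.500 ± 0.344 in GFP (SD, n = 4 each). CFAP298 was called higher in WT, at 98.8 ± 2.18 CPM against 85.3 ± 7.13 CPM in GFP, and that call was lost without GFP replicate 2 or 4, when the log2 fold changes were 0.18 and 0.17. CFAP69, required in sperm flagella, had 4.46, 5.58, 5.53 and 5.003 CPM in G659fs, 6.67, 8.77, 8.34 and 5.19 in R117fs, 7.21, 5.17, 6.800 and 5.44 in WT and 9.58, 10.2, 10.3 and 12.2 in GFP. Every construct library was below every GFP library, and the 3 construct groups overlapped. Its R117fs call was lost without GFP replicate 4 or R117fs replicate 1, at log2 fold changes of -0.46 and -0.47. CFAP70, likewise required in sperm flagella, averaged 7.26 ± 1.28 CPM in G659fs and 13.7 ± 2.198 in GFP. CFAP57 and CFAP99 were called lower in G659fs at under 1 CPM, CFAP99 in WT as well, and CFAP157 was called lower in R117fs, and shares 32.7% of its 31-base words with other genes. Leaving out 1 library ended the G659fs call of CFAP57 (GFP replicate 4, log2 fold change -1.11), the G659fs call of CFAP99 (GFP replicate 2 or 4 or G659fs replicate 1 or 4, -0.75 to -0.62) and the R117fs call of CFAP157 (GFP replicate 3, -0.61).

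Counted over the 37 tested genes other than CFAP43, WDR78 and DNAH17, 16 were called lower and 0 higher in G659fs against GFP (43.2%), where 25.4% of all tested genes were called (13.8% lower and 11.6% higher). In R117fs against GFP 5 were lower and 1 higher (16.2%), beside 15.6% of all tested genes (8.57% lower and 7.04% higher). In WT against GFP 9 were lower and 2 higher (29.7%), beside 21.5% of all tested genes (11.6% lower and 9.85% higher). The set was chosen on these contrasts, so the counts describe it and support nothing. CFAP69, DNAH1, DNAH12 and DNAI1 were called lower in all 3 groups. Of these only DNAI1 kept all 3 calls under every alternative. The G659fs call of DNAH12 was lost with an offset for effective transcript length (log2 fold change -0.64, edgeR adjusted p = 0.070). CFAP53, CFAP99, DNAH6 and DNAH7 were called lower in G659fs and WT, and 8 genes in G659fs alone: CFAP20, CFAP206, CFAP221, CFAP300, CFAP52, CFAP57, CFAP70 and DNAH3. Alone means that the other 2 groups gave no call against GFP. Compared directly, only CFAP300 of the 8 was called lower than in WT, a call lost under 7 of 26 alternatives. CFAP206, CFAP221, CFAP300 and CFAP70 were called lower than in R117fs, and only CFAP70 kept that call under all 26. Shares of all tested genes with these patterns of calls were not counted. The 3 contrasts against GFP share the GFP libraries. The median log2 fold change of the 37 genes was -0.47 in G659fs, -0.12 in R117fs and -0.24 in WT, beside medians of all tested genes within 0.01 of 0. Without R117fs replicate 4 the count in R117fs against GFP was 5 lower and 5 higher, with 21.7% of all tested genes called, and without replicates 1 and 4 it was 4 lower and 4 higher, with 22.7%.

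G659fs had the lowest group mean in 25 of the 40 genes (62.5%), against 24.2% of all tested genes, and GFP the highest in 24 (60%), against 29.8%. The full order of G659fs, WT, R117fs and GFP, low to high, was found in 13 genes (32.5%), against 6.71% of all tested genes. The 40 genes include CFAP43, WDR78 and DNAH17, on which the set was chosen, so these shares describe the set and support nothing. A sum was taken over the 49 genes without the 5 of highest TPM, with CFAP43, WDR78 and DNAH17 kept in. The summed level was 155 to 165 CPM in G659fs, 139 to 187 in R117fs and 170 to 197 in WT, against 216 to 234 in GFP. Part of the gap to GFP lies in CFAP43, WDR78 and DNAH17, whose values are given above. Of 55 calls of the 37 genes over the 6 comparisons, 22 were kept under all 26 alternative settings. A model offset for effective transcript length, which moves counts with the transcript a read is assigned to, lost the most, 27 of 55, and left 8 of 37 genes called in G659fs against GFP (21.6%), beside 20.8% of all tested genes. A GC correction lost 0 of 55.

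**Figure D3:**
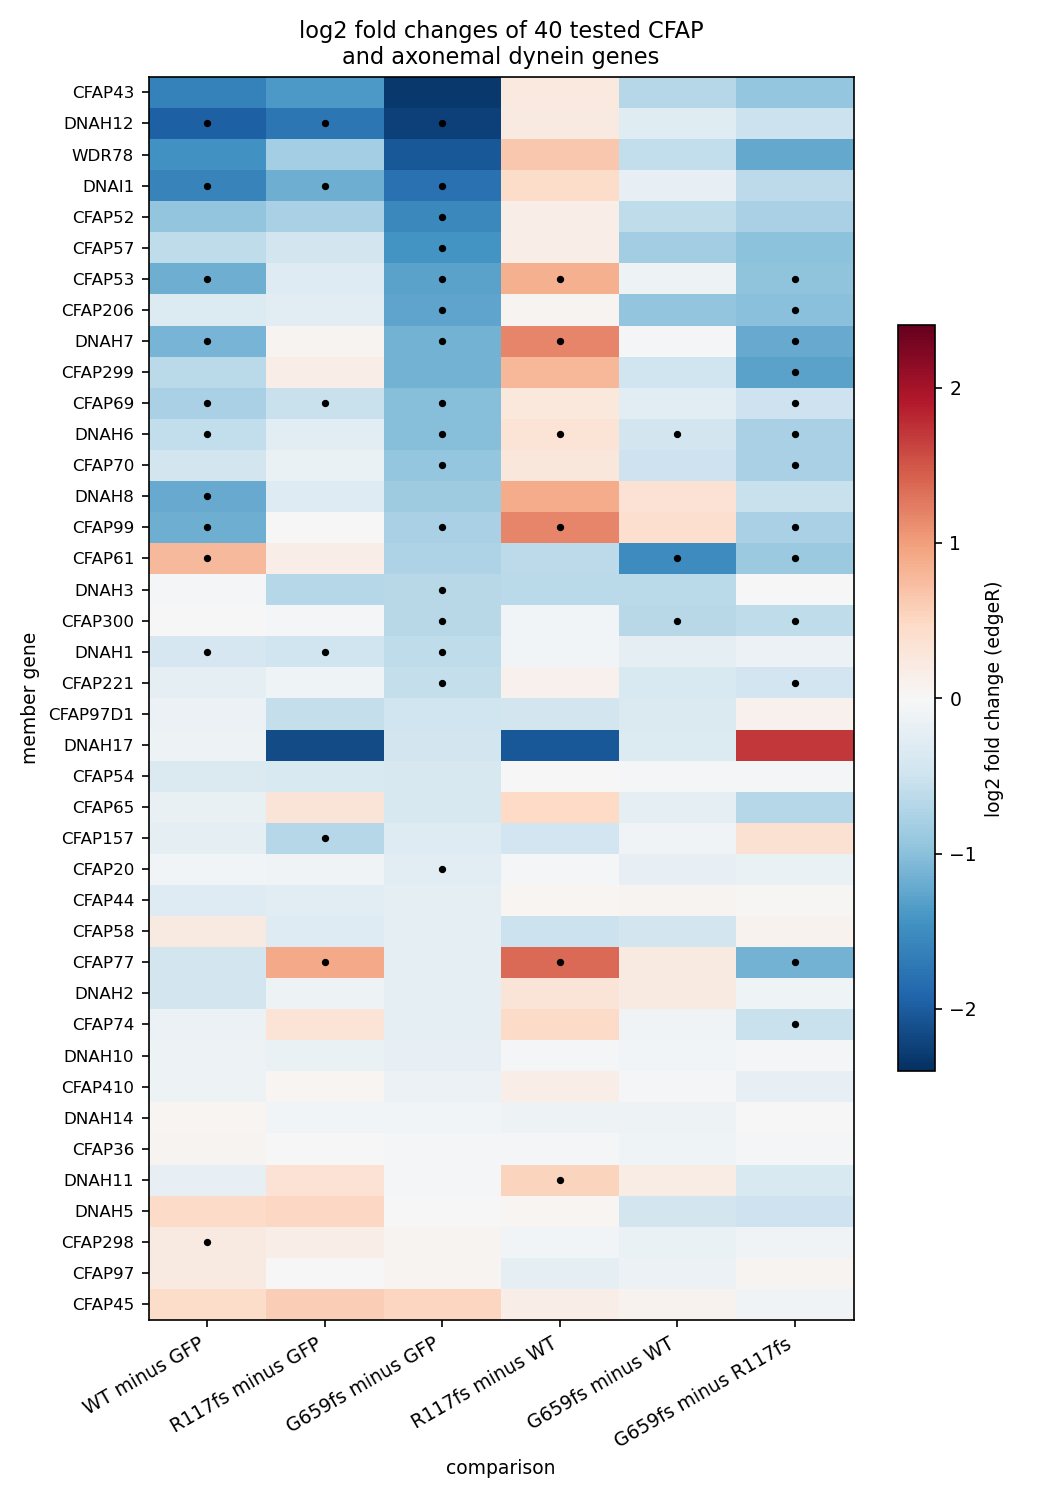
Log2 fold changes (colour; blue lower and red higher in the group named before "minus") of the 40 tested genes (rows, ordered by G659fs minus GFP) in the 6 comparisons (columns). A black dot marks an edgeR adjusted p under 0.05 and is not drawn for CFAP43, WDR78 and DNAH17. The G659fs minus GFP column holds 16 dots, all on blue cells, and DNAH17 alone is dark red in G659fs minus R117fs.

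The constructs were next compared with each other. RNF43 averaged 39391 CPM in G659fs, 68441 in R117fs and 53346 in WT, so the variant and its level cannot be told apart here. The contrasts with WT ask whether the response differed with a frameshift, and G659fs against R117fs sets the frameshifts against each other. These contrasts share libraries with those on which the set was chosen, so CFAP43, WDR78 and DNAH17 are again given with no test. G659fs was lower than R117fs in 13 of the other 37 genes and higher in 0 (35.1%), against 14.4% of all tested genes called (8.02% lower and 6.35% higher). CFAP299, among the 13, may have passed the low-count filter through R117fs and GFP alone, and its call was lost under 7 of 26 alternatives. The median log2 fold change of the 37 genes was -0.50, beside 0.00 for all tested genes. The difference was -1.20 ± 0.18 (SE, edgeR adjusted p = 0.00044) for DNAH7, -0.77 ± 0.10 (SE, edgeR adjusted p = 9.7e-05) for DNAH6, -1.14 ± 0.21 (SE, edgeR adjusted p = 0.0017) for CFAP77, -0.97 ± 0.20 (SE, edgeR adjusted p = 0.0039) for CFAP53 and -0.77 ± 0.18 (SE, edgeR adjusted p = 0.0075) for CFAP70. The call of DNAH7 was lost with the length offset and in limma on deposited TPM, and the other 4 genes kept theirs under all 26 alternatives. CFAP43 and WDR78 differed by -0.93 ± 0.15 and -1.23 ± 0.16, and DNAH17 had the opposite sign, 1.71 ± 0.12 (log2 with SE). The count of 13 came to 6 without R117fs replicate 2, where 11.1% of all tested genes were called, and to 8 without R117fs replicate 3 (13.7%). It came to 8 without G659fs replicate 1 (11.2%), to 7 without G659fs replicate 2 (8.21%) and to 6 without G659fs replicate 3 (7.81%). Without R117fs replicates 1 and 4 it was 16, all lower, with 26.3% of all tested genes called.

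R117fs was higher than WT in 6 of the 37 genes and lower in 0 (16.2%), against 8.11% of all tested genes called (4.5% higher and 3.62% lower). The higher genes were CFAP53, CFAP77, CFAP99, DNAH6, DNAH7 and DNAH11. The log2 fold change was 1.36 ± 0.22 (SE, edgeR adjusted p = 0.0012) for CFAP77 and 0.85 ± 0.20 (SE, edgeR adjusted p = 0.015) for CFAP53, and both calls were kept under all 26 alternatives. DNAH7 differed by 1.17 ± 0.18 (SE, edgeR adjusted p = 0.0011), but by 0.78 (adjusted p = 0.29) in edgeR with the length offset. DNAH11, an outer arm heavy chain, had 6.95, 9.303, 8.55 and 6.11 CPM in R117fs against 5.16, 5.35, 5.83 and 5.09 CPM in WT, with no overlap, a log2 fold change of 0.54 ± 0.13 (SE, edgeR adjusted p = 0.017). Its call was lost without R117fs replicate 2, at 0.42. The call of DNAH6, at 0.33 ± 0.10 (SE, edgeR adjusted p = 0.041), was lost under 16 of 26 alternatives, among them the omission of R117fs replicate 2 or 3, G659fs replicate 2 or 4, or any single WT or GFP library, at log2 fold changes between 0.26 and 0.38. WDR78 and DNAH17 differed by 0.64 ± 0.15 and -2.03 ± 0.12 (log2 with SE). The count of 6 came to 4 without R117fs replicate 2, with 5.29% of all tested genes called. Without R117fs replicates 1 and 4 the count came to 8, with 19.5% of all tested genes called.

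G659fs against WT gave 3 of 37 genes lower and 0 higher in edgeR (8.11%, and 10 at an unadjusted p under 0.05 in either direction), against 5.67% of all tested genes called (3.35% lower and 2.32% higher). They were CFAP61, with a log2 fold change of -1.51 ± 0.23 (SE, edgeR adjusted p = 0.0033), CFAP300 with -0.67 ± 0.15 (SE, edgeR adjusted p = 0.02) and DNAH6 with -0.44 ± 0.10 (SE, edgeR adjusted p = 0.019). Only the call of CFAP61 was kept under all 26 alternatives. CFAP43 and WDR78 differed by -0.69 ± 0.15 and -0.59 ± 0.16 (log2 with SE). Leaving out WT replicate 1, WT replicate 3, G659fs replicate 2 or G659fs replicate 3 brought the count to 1 (2.7%). The share of all tested genes called was then 0.886%, 1.25%, 0.59% and 0.685%, in that order. Leaving out R117fs replicate 4, which enters through the shared spread, brought the count to 8 (21.6%), when 20.7% of all tested genes were called.

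For several members the estimated counts of the protein-coding transcripts and of the other annotated transcripts moved differently. WDR78 averaged 1.61 ± 0.356 CPM on its 7 protein-coding transcripts in G659fs, 5.13 ± 1.14 in R117fs and 3.24 ± 0.6702 in WT, against 10.04 ± 1.17 in GFP (SD, n = 4 each). On its 5 other transcripts it averaged 1.21 ± 0.1199 CPM in G659fs, 1.36 ± 0.212 in R117fs and 0.985 ± 0.4002 in WT, against 1.46 ± 0.478 in GFP. Coding transcripts of WDR78 in G659fs thus lay far below those in GFP, while the ranges of the others overlapped.

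CFAP69 had 1.87 ± 0.506 CPM on coding transcripts in G659fs, against 6.44 ± 0.832 in GFP, and 3.27 ± 0.462 CPM in G659fs, against 4.12 ± 0.8287 in GFP, on the others, which include a retained-intron transcript of 6966 bases. DNAH7 had 0.953 ± 0.05304 CPM in G659fs against 2.76 ± 0.568 in GFP on coding transcripts, and 0.5796 ± 0.178 CPM in G659fs against 0.647 ± 0.102 in GFP on the others. DNAH12 had 0.114 ± 0.0461 CPM in G659fs against 1.96 ± 0.705 in GFP on coding transcripts, and 0.3696 ± 0.0692 CPM in G659fs against 0.359 ± 0.101 in GFP on the others.

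These 4 genes were chosen after their values were seen. Of the 16 genes called lower in G659fs against GFP together with CFAP43, WDR78 and DNAH17, 19 in all, 16 had at least 0.1 CPM in both classes in GFP. In 10 of the 16 the log2 ratio of G659fs to GFP was lower on coding transcripts than on the others, with medians of -0.98 and -0.73. CFAP20, CFAP221, CFAP70, DNAH17, DNAH6 and DNAI1 went the other way. DNAH17 had a log2 ratio of -0.28 on coding transcripts and -0.93 on the others, and DNAH6 had -0.99 and -1.75. How reads are divided between transcripts of a gene is itself an estimate and was not tested here.

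**Figure D4:**
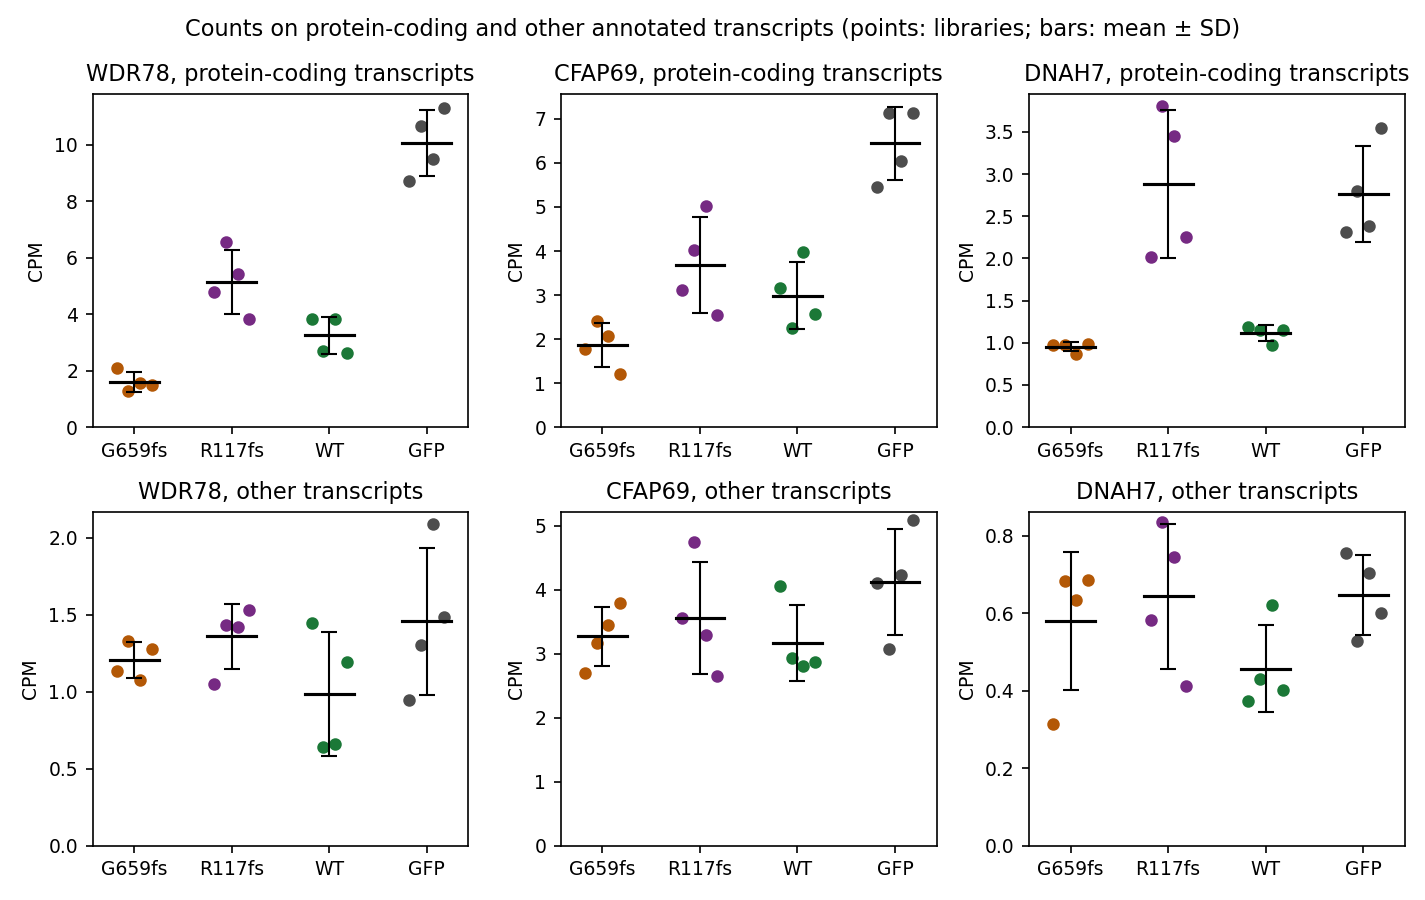
CPM (vertical) summed over protein-coding transcripts (top row) and over other annotated transcripts (bottom row) of WDR78, CFAP69 and DNAH7, by group (horizontal). Points are libraries and bars are the mean ± SD of 4. In the top row GFP lies well above G659fs, and in the bottom row the libraries of G659fs and GFP overlap.

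Other axonemal genes, from lists that were also drawn up with earlier results known, were set beside the members. Their counts are read beside the 25.4% of all tested genes called in G659fs, 15.6% in R117fs and 21.5% in WT against GFP. Among 20 tested genes of radial spokes, the nexin-dynein regulatory complex and the central pair, 13 were lower and 0 higher in G659fs against GFP, 3 lower and 0 higher in R117fs, and 8 lower and 0 higher in WT (65%, 15% and 40% called), with median log2 fold changes of -0.44, -0.07 and -0.36. SPEF1, a microtubule-bundling protein of the central pair, had 0.279, 0.528, 0.346 and 0.3404 CPM in G659fs, 0.903, 1.07, 2.02 and 2.31 in R117fs, 0.406, 0.5196, 0.648 and 0.486 in WT and 2.13, 1.91, 1.41 and 2.27 in GFP. Its G659fs and WT libraries lay below all R117fs and GFP libraries, and it differed between G659fs and R117fs by -1.87 ± 0.32 (SE, edgeR adjusted p = 0.0011) and between R117fs and WT by 1.45 ± 0.30 (SE, edgeR adjusted p = 0.0086). RSPH4A, of the radial spoke head, averaged 1.05 ± 0.237 CPM in G659fs, 1.23 ± 0.254 in R117fs and 1.22 ± 0.168 in WT, against 2.39 ± 0.548 in GFP (SD, n = 4 each). DRC3, of the regulatory complex, averaged 7.34 ± 0.424 CPM in G659fs, 8.003 ± 0.805 in R117fs and 6.71 ± 0.656 in WT, against 10.2 ± 0.628 in GFP.

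The lists for the remaining parts of the arms hold fewer genes. Among 7 tested light and other dynein chains, 4 were lower and 0 higher in G659fs against GFP, 1 lower and 0 higher in R117fs, and 2 lower and 1 higher in WT (57.1%, 14.3% and 42.9% called). WDR63, an inner arm intermediate chain, had 2.404, 2.09, 2.84 and 2.38 CPM in G659fs, 3.84, 4.69, 4.87 and 3.698 in R117fs, 2.84, 2.85, 3.06 and 2.85 in WT and 3.95, 5.56, 4.06 and 4.804 in GFP, and differed between G659fs and R117fs by -0.81 ± 0.14 (SE, edgeR adjusted p = 0.00085). The light chains DNAL4 and DNAL1 had log2 fold changes of -0.43 ± 0.09 and -0.40 ± 0.10 in G659fs against GFP. Of 13 tested arm assembly factors, 4 were lower and 0 higher in G659fs against GFP, 1 lower and 1 higher in R117fs, and 4 lower and 0 higher in WT (30.8%, 15.4% and 30.8% called), so that the share in R117fs lay at that of all tested genes. DNAAF1 differed between G659fs and R117fs by -0.65 ± 0.16 (SE, edgeR adjusted p = 0.011), LRRC6 by -0.90 ± 0.20 (SE, edgeR adjusted p = 0.0073) and PIH1D2 by -0.39 ± 0.16 (SE, edgeR adjusted p = 0.1). Of 7 docking and ruler proteins, 2 were lower and 0 higher in G659fs against GFP, 0 were called by edgeR in R117fs (1 at an unadjusted p under 0.05), and 2 were lower and 1 higher in WT (28.6%, 0% and 42.9% called). TTC25, which docks the outer arm, had 6.51, 6.54, 6.72 and 6.43 CPM in G659fs, 10.7, 10.4, 9.48 and 9.14 in R117fs, 9.53, 8.52, 9.07 and 10.6 in WT and 11.1, 11.9, 10.1 and 10.1 in GFP, with the G659fs libraries below all others. CCDC114, of the docking complex, differed between G659fs and GFP by -1.07 ± 0.19, and CCDC40, a ruler protein, by -0.06 ± 0.08.

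Outside the axoneme, intraflagellar transport, which carries cargo in all cilia, had 12 of 31 tested genes lower and 1 higher in G659fs against GFP, 2 lower and 3 higher in R117fs, and 5 lower and 1 higher in WT (41.9%, 16.1% and 19.4% called), with the shares in R117fs and WT near those of all tested genes. G659fs against R117fs gave 11 lower and 1 higher (38.7%, beside 14.4% of all tested genes), with a median log2 fold change of -0.15. TTC30A differed between G659fs and R117fs by -1.01 ± 0.12 (SE, edgeR adjusted p = 6.2e-05), IFT22 by -0.49 ± 0.08 (SE, edgeR adjusted p = 0.00061) and WDR60, a chain of the dynein that drives retrograde transport, by -0.33 ± 0.06 (SE, edgeR adjusted p = 0.0015). The BBSome, a coat complex that moves membrane proteins in cilia, had 3 of 12 lower and 0 higher in G659fs against GFP (25%, near the 25.4% of all tested genes), with 0 called by edgeR in R117fs and in WT (2 and 1 at an unadjusted p under 0.05). TTC8, BBS1 and BBS7 had log2 fold changes of -0.35 ± 0.08, -0.61 ± 0.20 and -0.29 ± 0.09. Cytoplasmic dynein 1, the motor of the cell body, had 2 of 14 lower and 1 higher in G659fs, 1 lower and 3 higher in R117fs, and 0 lower and 1 higher in WT (21.4%, 28.6% and 7.14% called), so that its shares in G659fs and WT lay below those of all tested genes. DYNC1I2 and DCTN3 were the lower ones in G659fs, at -0.27 ± 0.07 and -0.24 ± 0.07, and DYNLRB1 was higher in R117fs, at 0.25 ± 0.07.

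Of 13 tested regulators of ciliary genes, 4 were lower and 3 higher in G659fs against GFP, 0 lower and 1 higher in R117fs, and 4 lower and 2 higher in WT (53.8%, 7.69% and 46.2% called). FOXJ1, which switches on motile cilium genes, had 0.279, 0.459, 0.395 and 0.442 CPM in G659fs, 0.677, 1.04, 1.295 and 1.08 in R117fs, 0.492, 0.6100, 0.736 and 0.421 in WT and 0.9501, 0.9202, 0.953 and 1.12 in GFP. All G659fs libraries lay below all R117fs libraries, WT overlapped both, and the GFP libraries lay above G659fs and WT and within the R117fs range. FOXJ1 differed between G659fs and R117fs by -1.27 ± 0.24 (SE, edgeR adjusted p = 0.0018) and between R117fs and WT by 0.77 ± 0.22 (SE, edgeR adjusted p = 0.039). RFX3, a factor that binds the X-box, had 12.8, 11.1, 11.1 and 10.3 CPM in G659fs, 15.01, 17.4, 17.6 and 12.2 in R117fs, 13.4, 10.9, 13.2 and 12.5 in WT and 15.96, 19.9, 17.3 and 20.3 in GFP. Its G659fs and WT libraries overlapped below GFP, and it differed between G659fs and R117fs by -0.47 ± 0.12 (SE, edgeR adjusted p = 0.012). TFDP1, the partner of E2F factors, moved up by 0.27 ± 0.05 (SE, edgeR adjusted p = 0.0033) in the same comparison. Whether these levels bear on the dynein and CFAP genes was not tested.

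**Figure D5:**
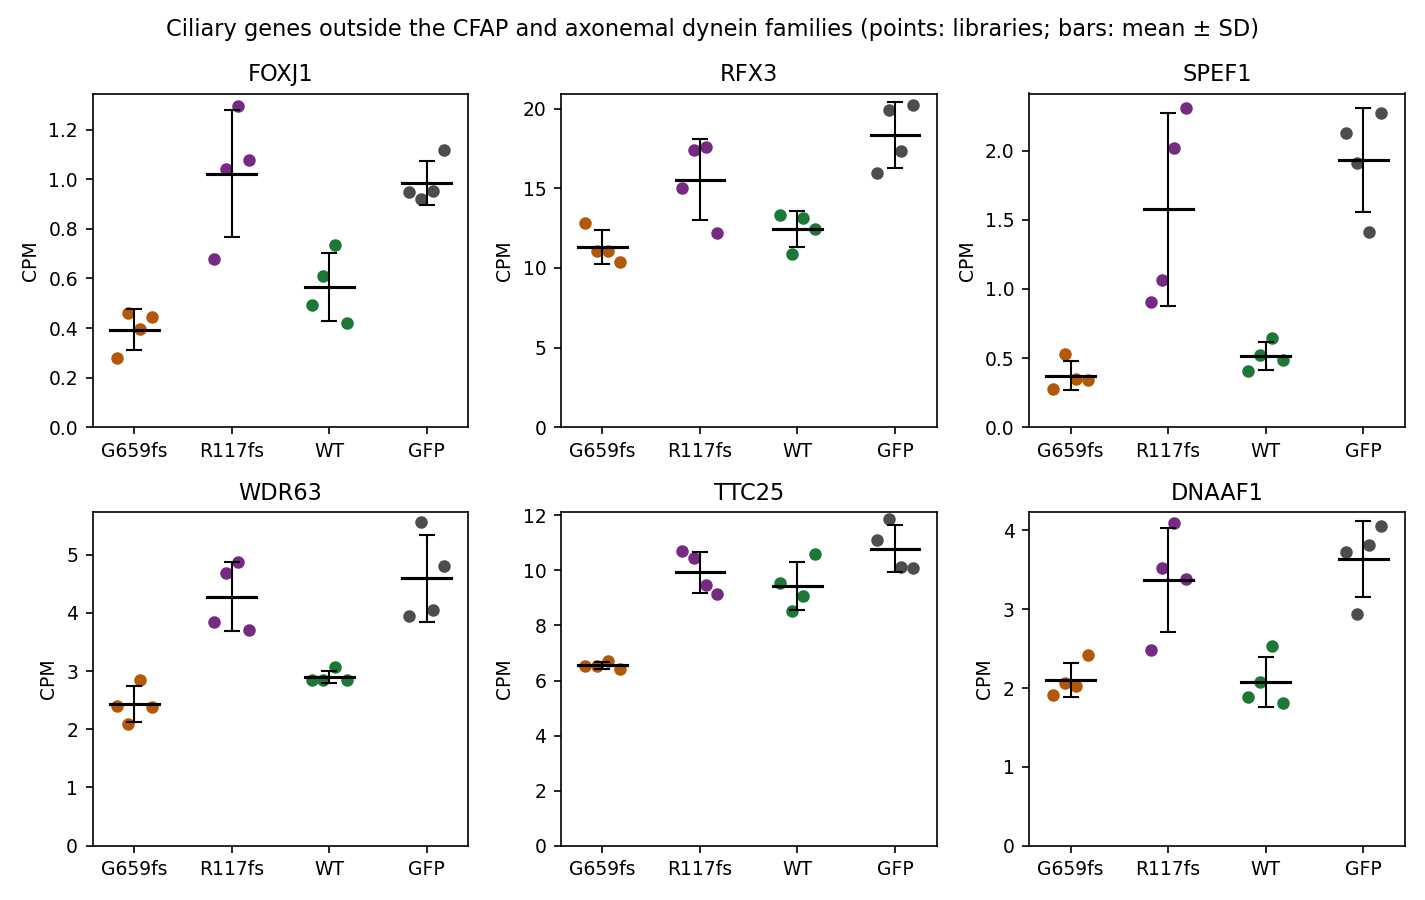
CPM (vertical) in the 16 libraries, by group (horizontal), for FOXJ1, RFX3, SPEF1, WDR63, TTC25 and DNAAF1. Points are libraries and bars are the mean ± SD of 4. For FOXJ1, SPEF1, WDR63 and DNAAF1 the G659fs and WT means lie below those of R117fs and GFP, and for TTC25 G659fs alone is low.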

How the data were processed

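Per the submitters' processing notes, the authors quantified transcripts with kallisto 0.45.1 on GRCh38. The deposited files gave, per the file headers, a length, an effective length, an estimated count and a TPM value for each of 178136 transcripts. An estimated count is the number of reads assigned to a transcript and need not be whole. TPM is scaled by the authors to effective length and library. The annotation release, read length, strand setting and run options are not given in the sources used here. Of the transcripts, 91.2% were matched by identifier to GENCODE 29, which may not be the authors' release. The rest held at most 2.22% of a library's counts and were left out.

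Estimated counts were summed per gene with Python 3.11.15 and pandas 2.3.3 and rounded to whole numbers. edgeR 4.0.16 in R 4.3.3 was run on all 16 libraries at once, with 1 coefficient per group: filterByExpr (minimum count 10), TMM, robust dispersions, glmQLFit and glmQLFTest. P-values were adjusted by Benjamini-Hochberg over the 16787 genes tested, and a gene was called at an adjusted p under 0.05. CPM is the count relative to the TMM-scaled library size. TPM served for levels between genes, and in 1 alternative. Totals of 20364357 to 46779570 counts limit precision for genes under 1 CPM. The closest pair of libraries in a group differed by 3.53 in chi-square per degree of freedom, so none was counted as a duplicate. The test was checked on simulated counts.

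The members and the gene lists were chosen with earlier results of these data known. Named with values are CFAP43, WDR78 and DNAH17, up to 24 other members called in at least 1 comparison by smallest adjusted p, the 5 members of highest TPM and, of each list, up to 3 called genes. CFAP44, CFAP45, CFAP54, CFAP97, DNAH2, DNAH5, DNAH10 and the 9 untested members were named beyond this rule after their values were seen. Alternatives were upper-quartile scaling, no low-count filter, the libraries of the 2 groups alone, a replicate block, an effective length offset, a GC correction, protein-coding transcripts alone, DESeq2 1.42.0, limma 3.58.1 on log2(TPM + 0.1), and leaving out each library. Leaving out R117fs replicates 1 and 4 together was added after seeing the data. A planned comparison of protein sequences was not run. Of the marker lists, the haematopoietic one is not reported here.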

Additional observations from a re-analysis of the deposited data

Results flagged for a closer look

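Of 120 sets of 4 libraries (30 named genes in 4 groups), 3 held a library far from the others by Dixon's test at 95%, which chance flags in about 1 of 20 groups. CFAP36 was lowest in R117fs replicate 4, at 28.3 CPM, with the nearest library at 36.2. CFAP157 was highest in G659fs replicate 3, at 2.32 CPM, with the nearest at 2.00. CFAP74 was lowest in R117fs replicate 1, at 1.76 CPM, with the nearest at 2.82.

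Effects against GFP differed between constructs in 22 cases, by edgeR's test of the difference itself, which is the comparison of the constructs. The log2 differences of G659fs minus R117fs were CFAP206 -1.01, CFAP221 -0.46, CFAP299 -1.29, CFAP300 -0.61, CFAP53 -0.97, CFAP61 -0.88, CFAP69 -0.50, CFAP70 -0.77, CFAP74 -0.54, CFAP77 -1.14, CFAP99 -0.78, DNAH6 -0.77 and DNAH7 -1.20. Those of R117fs minus WT were CFAP53 0.85, CFAP77 1.36, CFAP99 1.18, DNAH11 0.54, DNAH6 0.33 and DNAH7 1.17. Those of G659fs minus WT were CFAP300 -0.67, CFAP61 -1.51 and DNAH6 -0.44. CFAP43, WDR78 and DNAH17, on which the set was chosen, are not counted here. CFAP299 averaged 0.042 CPM on coding and 0.115 CPM on other transcripts in G659fs. It averaged 0.104 and 0.223 CPM in R117fs, and 0.102 and 0.230 CPM in GFP. At these levels it may have passed the low-count filter through R117fs and GFP alone. Its call was lost under 7 of 26 alternatives, among them no low-count filter (edgeR adjusted p = 0.054) and limma on deposited TPM (adjusted p = 0.72).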

How the results depend on the processing

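The counts are over the 37 tested genes other than CFAP43, WDR78 and DNAH17. Over 26 alternatives, 22 of the 55 calls were kept under every one, 7 of 16 in G659fs against GFP, 3 of 6 in R117fs against GFP, 5 of 11 in WT against GFP, 4 of 13 in G659fs against R117fs, 2 of 6 in R117fs against WT and 1 of 3 in G659fs against WT. The lowest and highest counts when leaving out 1 library are given with the share of all tested genes called in brackets. They were 13 (18%) and 19 (39.4%) in G659fs against GFP, and 4 (10.6%) and 10 (21.7%) in R117fs against GFP. In WT against GFP they were 8 (15.2%) and 14 (36%). In G659fs against R117fs they were 6 (7.81% or 11.1%) and 14 (16.6% or 23.5%). They were 4 (5.29%) and 8 (15.4%) in R117fs against WT, and 1 (0.59% to 1.25%) and 8 (20.7%) in G659fs against WT. The effective length offset gave 8 in G659fs against GFP (21.6%, beside 20.8% of all tested genes), 5 in G659fs against R117fs (13.5%, beside 10.3%) and 1 in G659fs against WT (2.7%, beside 2.58%). In G659fs against R117fs limma on deposited TPM gave 6 (16.2%, beside 9.41%) and protein-coding transcripts alone 8 (22.9%, beside 12.6%), and limma gave 1 in G659fs against WT (2.7%, beside 1.07%). The libraries of the 2 groups alone gave 3 in R117fs against GFP (8.57%, beside 3.67%), 7 in G659fs against R117fs (20%, beside 4.84%), 3 in R117fs against WT (8.33%, beside 0.938%) and 8 in G659fs against WT (23.5%, beside 28.5%). In G659fs against WT the GC correction gave 6 (16.2%, beside 19.9%), DESeq2 6 (16.2%, beside 9.91%), and leaving out R117fs replicates 1 and 4 together, an alternative chosen after seeing the data, 8 (21.6%, beside 24%). The higher counts in G659fs against WT thus came with a higher share of all tested genes. Of the 55 calls, the length offset lost 27, limma on TPM 22 with 1 more reversed, protein-coding transcripts alone 17, DESeq2 4 and upper-quartile scaling 0.

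The sign reversed for DNAH8, WT minus GFP, log2 fold change, 0.11 in limma on TPM against -1.20. The cause was not tested. Libraries sharing a replicate number had correlated deviations of -0.06 to 0.16, and 8 of 16 libraries correlated best with their own number. Not every pair was above 0.1, so the number was not taken as a pairing. With the replicate block 17 genes were called in G659fs against GFP (45.9%, beside 27.2% of all tested genes). The count was 7 in R117fs against GFP (18.9%, beside 17.3%) and 12 in WT against GFP (32.4%, beside 23.5%). It was 13 in G659fs against R117fs (35.1%, beside 16.3%), 6 in R117fs against WT (16.2%, beside 11%) and 4 in G659fs against WT (10.8%, beside 7.96%). Depth limits the 12 tested members that averaged under 1 CPM and left 9 untested.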

Other observations

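The transcripts of DNAH14, 1 of the 3 members of highest TPM, were divided differently between the groups although the gene as a whole passed the test in no comparison. A transcript of 1103 bases held a share of 43.5% ± 2.64 in G659fs, 41.0% ± 5.94 in R117fs and 44.1% ± 2.88 in WT, against 30.1% ± 5.08 in GFP. The full-length transcript of 13763 bases had 7.36 ± 0.851 CPM in G659fs, 8.63 ± 2.55 in R117fs and 7.69 ± 1.53 in WT, against 13.6 ± 1.57 in GFP (SD, n = 4 each). On the full-length transcript every construct library lay below every GFP library, and no test was run. Both transcripts are annotated as protein-coding, and the division of reads between them is an estimate.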
